A study of Homo sapiens with 12 samples.

Results

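The genes described here are the 30 members of a list for cholesterol synthesis, sterol transport and the control of the transcription factor SREBP2. They were taken from a list of symbols, drawn up with earlier results of these data known. The symbols were matched to a raw count table of 58735 genes, in which all 30 were found. RNA was sequenced from U2OS cells, an established human osteosarcoma line grown in medium with serum, after 24 h of treatment. The 4 groups, of 3 libraries each, were cells given 10 µM TH10785 together with 10 µM PNKP1i (the combination), 10 µM TH10785 alone, 10 µM PNKP1i alone, or DMSO, the solvent control. TH10785 comes from a study of small molecules that activate OGG1, a repair enzyme that cuts oxidised guanine out of DNA. The labels spell it TH10785 and the series record TH10587. No structure of PNKP1i was given in the sources used here. Nothing in the labels states that the replicates were separate cultures. The p-values therefore measure only how far these samples spread, and that spread may be technical.

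Cells make cholesterol from acetyl-CoA through mevalonate, isoprenoid diphosphates, squalene and lanosterol, and they also take it up and move it between membranes. When sterols in the endoplasmic reticulum are low, SCAP escorts SREBP2 to the Golgi, where the site-1 and site-2 proteases release a fragment that enters the nucleus and switches on most genes of the pathway. When sterols are high, INSIG proteins hold SCAP and SREBP2 in the endoplasmic reticulum. INSIG1 is itself an SREBP target, and so is the gene of SREBP2, SREBF2.

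Promoter windows of 250 bases before to 50 after the RefSeq start (GRCh38.p14) were found for 27 of the 30 genes. They were searched on both strands for TCACNCCAC, a form of the sterol regulatory element bound by SREBPs, and for CCAAT, the box bound by NF-Y, which often acts beside SREBPs. The sterol element occurred in 1 of the 27 genes (3.7%), against 1.39% of 27305 genes with a window. The NF-Y box occurred in 20 of the 27 (74.1%), against 39.7% of all genes. It lay in 15 of the 16 genes with a window that were higher with TH10785 than with DMSO (all but CYP51A1) and in 5 of the 11 that were not. These are descriptions of letters in a window, and the absence of a match says nothing about a factor. The stretches below are examples, and leave out CYP51A1 and the 5 genes that held a box and were not called higher. They show the gene of SREBP2, which held the sterol element, and MVD and MSMO1, synthesis genes that rose with TH10785. The pair INSIG1, which rose, and INSIG2, which did not pass, follows. All stretches are given 5′ to 3′ on the gene's strand, and capitals mark the motifs, as ATTGG where the NF-Y box was on the opposite strand. In SREBF2 the sterol element started at position -133 from the start and the NF-Y box at -106, without overlap. The INSIG2 stretch held neither motif. The stretches lie at chr22:41832879-41833078 (SREBF2, plus strand), chr16:88663162-88663341 (MVD, minus strand), chr4:165327423-165327622 (MSMO1, plus strand), chr7:155297628-155297775 (INSIG1, plus strand) and chr2:118088252-118088451 (INSIG2, plus strand).
SREBF2: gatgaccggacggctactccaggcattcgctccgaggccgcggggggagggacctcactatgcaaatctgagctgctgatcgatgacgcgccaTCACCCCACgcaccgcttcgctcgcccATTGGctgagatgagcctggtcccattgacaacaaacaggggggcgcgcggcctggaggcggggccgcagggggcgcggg
MVD: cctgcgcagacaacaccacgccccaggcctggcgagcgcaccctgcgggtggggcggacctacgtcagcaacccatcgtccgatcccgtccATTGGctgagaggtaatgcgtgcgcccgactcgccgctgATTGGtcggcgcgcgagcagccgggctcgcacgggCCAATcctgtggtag
MSMO1: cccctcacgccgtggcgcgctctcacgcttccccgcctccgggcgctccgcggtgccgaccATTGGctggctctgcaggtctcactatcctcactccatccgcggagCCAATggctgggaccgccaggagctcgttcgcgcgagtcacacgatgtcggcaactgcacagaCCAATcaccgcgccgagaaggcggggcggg
INSIG1: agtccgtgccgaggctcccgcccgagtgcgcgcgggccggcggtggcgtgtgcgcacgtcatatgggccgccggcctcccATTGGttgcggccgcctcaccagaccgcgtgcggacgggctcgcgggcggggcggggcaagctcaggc
INSIG2: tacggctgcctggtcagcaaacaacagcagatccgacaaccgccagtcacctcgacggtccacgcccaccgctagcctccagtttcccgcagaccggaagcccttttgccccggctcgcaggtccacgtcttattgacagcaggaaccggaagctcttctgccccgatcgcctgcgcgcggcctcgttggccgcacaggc

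The libraries held 16225339 to 21546369 counts each. Levels are CPM, counts per 1000000 of the library's total after scaling by TMM, a factor that aligns the bulk of genes between libraries. The mesenchymal genes VIM, SPARC, COL1A1, CDH2, RUNX2 and TWIST2 were present in every library, and 8 markers of other cell types together made 5.63 to 8.28 CPM, with CD3E at 0 throughout. Libraries differed in base composition. Genes with under 40% GC (2369 genes) lay 0.46 to 0.80 on the log2 scale above the DMSO mean in the combination libraries (median over genes), and genes over 60% (2603 genes) lay at -0.37 to -0.34. TH10785 replicate 3 stood apart from its partners and went the other way, at -0.63 and 0.22, while replicates 1 and 2 were at 0.21 and 0.10 for low GC and -0.14 and -0.10 for high GC. The PNKP1i libraries lay at -0.27, -0.07 and -0.21 for low GC and -0.01 to 0.09 for high GC. Mitochondrial genes took 2.51% to 3.19% of counts in the combination, 3.88% to 3.92% with TH10785, 4.65% to 5.13% with PNKP1i and 4.24% to 6.80% with DMSO.

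With TH10785 alone, genes from almost every step of cholesterol synthesis rose together. Of the 30 members 19 rose, 0 fell and 11 did not pass the test, where 0.515% of the 17290 genes tested rose and 0.0463% fell (edgeR's quasi-likelihood test, Benjamini-Hochberg adjusted p under 0.05 over all genes). Since the list was chosen with earlier results of these data known, the contrast with these shares is a description and no independent support. All 30 members passed the filter on low counts. Their median log2 fold change was 1.13, against -0.02 over all tested genes. Summed over the list, the members had 4477, 4668 and 5319 CPM with TH10785 and 2411, 2547 and 2397 CPM with DMSO. The 3 TH10785 libraries all lay above the 3 DMSO libraries. Taken singly, 21 members had all TH10785 libraries above all DMSO libraries and 0 had them below. Of all tested genes 9.64% lay fully above and 10% fully below in this way. The background count of 97 called genes changed with single libraries, to 43, 47 and 53 without DMSO replicate 2, DMSO replicate 3 and TH10785 replicate 2, and to 180 without combination replicate 1, while 16 to 19 members rose in those fits. Without TH10785 replicate 3, 20 members rose, SC5D being added.

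**Figure D1:**
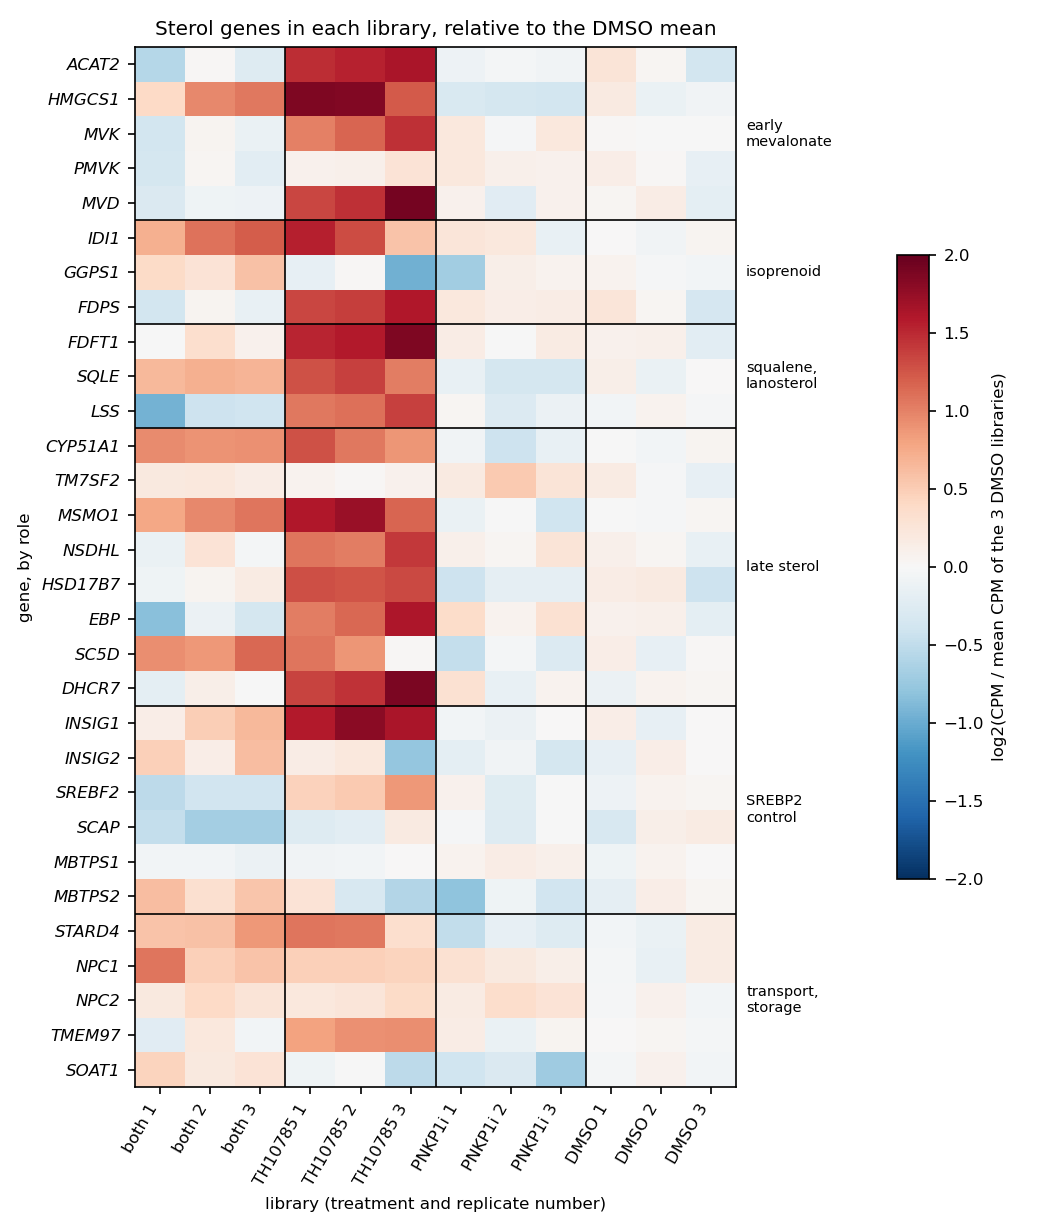
Level of the 30 genes (rows, grouped by role) in each of the 12 libraries (columns, 3 per treatment), as log2 of CPM over the mean CPM of the 3 DMSO libraries. Red marks higher and blue lower values: 19 genes were called higher with TH10785, most of the same rows are paler with the combination, and the PNKP1i columns stay near the DMSO level.

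In the early mevalonate steps 4 of 5 genes rose with TH10785. ACAT2, the cytosolic thiolase that joins acetyl-CoA units, had 149.9, 156.8 and 167.4 CPM with TH10785 and 64.6, 55.8 and 41.8 CPM with DMSO. The groups were far apart and the change was 2.93-fold (log2 1.55, SE 0.16, adjusted p = 3.04e-05). ACAT2 shares 33.9% of its exon bases with SOD2-OT1 and 26.5% with SOD2 on the opposite strand, so its count may hold their reads. HMGCS1, which makes HMG-CoA, had 195.1, 193 and 125.3 CPM with TH10785 and 60.5, 48.6 and 50.9 CPM with DMSO. Replicate 3 was the lowest of the TH10785 libraries and still above every DMSO library (log2 1.68, SE 0.18, adjusted p = 4.93e-05). MVD, the decarboxylase that ends the mevalonate steps, had 253.5, 276.8 and 377.5 CPM with TH10785 and 102.6, 110.8 and 87.2 CPM with DMSO. Here replicate 3 was the highest (log2 1.59, SE 0.15, adjusted p = 1.86e-05). The mevalonate kinase MVK rose 2.34-fold, with 92.9 to 127.5 CPM against 45.7 to 46.9 CPM. PMVK, the next kinase, had 32.7, 33 and 37.3 CPM with TH10785 and 33.7, 31.3 and 27.4 CPM with DMSO. Its groups overlapped (log2 0.16, SE 0.13, adjusted p = 0.63), and PMVK passed in none of the 6 comparisons as fitted here. Against TH10785 the combination was called in 5 of 23 alternative settings for PMVK (RLE scaling, DESeq2, limma-voom, limma-trend and without combination replicate 2).

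In the isoprenoid steps FDPS and IDI1 rose and GGPS1 did not pass. FDPS, which makes farnesyl diphosphate, had 184.5, 192 and 223.9 CPM with TH10785 and 86.5, 75.7 and 58.2 CPM with DMSO, without overlap (log2 1.45, SE 0.14, adjusted p = 2.58e-05). IDI1, the isopentenyl diphosphate isomerase, had 20.7, 17.3 and 10.4 CPM with TH10785 and 7.12, 6.72 and 7.33 CPM with DMSO. TH10785 replicate 3 was only a little above the DMSO libraries (log2 1.19, SE 0.22, adjusted p = 0.0169), and IDI1 lost its call in 7 of 23 alternative settings, among them the fits without DMSO replicate 1, 2 or 3 and without TH10785 replicate 1 or 2 (highest adjusted p = 0.13). GGPS1, which makes geranylgeranyl diphosphate for protein prenylation rather than for sterols, had 3.25, 3.73 and 1.89 CPM with TH10785 and 3.83, 3.60 and 3.53 CPM with DMSO. The groups overlapped (log2 -0.31, SE 0.27, adjusted p = 0.645), and 37.3% of GGPS1's exon bases are shared with TBCE on the same strand.

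All 3 genes of the squalene and lanosterol steps rose. FDFT1, the squalene synthase, had 572.9, 601.6 and 733.5 CPM with TH10785 and 212.4, 214.5 and 173.1 CPM with DMSO, and had the smallest p of the list (log2 1.67, SE 0.14). SQLE, the squalene epoxidase, a rate-limiting enzyme, had 254.1, 272.1 and 212.4 CPM with TH10785 and 114, 95.3 and 105.8 CPM with DMSO (2.34-fold, adjusted p = 1.86e-05). LSS, the lanosterol synthase, had 384.8, 394.7 and 477.7 CPM with TH10785 and 177.6, 193 and 182.2 CPM with DMSO. In all 3 genes every TH10785 library lay above every DMSO library, by factors of 2.27 to 3.18 between the group fits.

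Of the 8 late enzymes, which turn lanosterol into cholesterol, 6 rose with TH10785. MSMO1, the methyl sterol oxidase, had 108.5, 118.1 and 80.2 CPM with TH10785 and 35.4, 35.1 and 36.6 CPM with DMSO, a tight control group far below the treated one (log2 1.52, SE 0.15, adjusted p = 1.86e-05). DHCR7, a reductase at the end of the pathway, had 366.9, 393.2 and 531.7 CPM with TH10785 and 132.6, 150.6 and 147.7 CPM with DMSO (log2 1.58, SE 0.15, adjusted p = 1.86e-05). CYP51A1, the lanosterol demethylase, had 19.9, 17 and 15.2 CPM with TH10785 and 8.197, 7.88 and 8.56 CPM with DMSO, again without overlap (log2 1.08, SE 0.16, adjusted p = 0.00181). CYP51A1 shares 79.4% of its exon bases with AC000120.2 on the same strand, so its count is uncertain. NSDHL and HSD17B7, which work with MSMO1 in removing methyl groups, rose 2.27-fold and 2.46-fold, and the sterol isomerase EBP rose 2.43-fold. The pseudogene HSD17B7P2 held 10.2% as many counts as HSD17B7. The desaturase SC5D averaged 19.2 ± 6.60 CPM with TH10785 and 11.6 ± 1.22 CPM with DMSO (SD, n = 3 each) and did not pass (log2 0.72, SE 0.22, adjusted p = 0.156). SC5D was called in 5 of 23 settings, among them DESeq2 and the GC and length offsets (0.68, adjusted p = 0.0068 with the offsets alone). TM7SF2, a sterol reductase, had 9.44, 9.11 and 9.54 CPM with TH10785 and 9.99, 8.86 and 8.03 CPM with DMSO. Its groups overlapped (log2 0.06, SE 0.16, adjusted p = 0.895), and TM7SF2 passed in no comparison without GC and length offsets.

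Of the 6 genes that control SREBP2, INSIG1 and SREBF2 rose with TH10785. INSIG1 had 63.6, 73.4 and 65.5 CPM with TH10785 and 23.2, 18.8 and 21.3 CPM with DMSO, close replicates and a 3.2-fold difference (log2 1.68, SE 0.14, adjusted p = 1.28e-05). Its paralog INSIG2 had 8.46, 8.75 and 4.44 CPM with TH10785 and 6.76, 8.37 and 7.65 CPM with DMSO. Those groups overlapped (log2 -0.07, SE 0.23, adjusted p = 0.917). SREBF2 had 608.7, 630.8 and 800.4 CPM with TH10785 and 410.7, 461.2 and 451.2 CPM with DMSO, a smaller change than in most of the enzymes (log2 0.62, SE 0.13, adjusted p = 0.0377). SREBF2 kept its call in 15 of 23 settings and lost it, among others, without DMSO replicate 1, 2 or 3 (highest adjusted p = 0.166). SCAP (log2 -0.09), the site-1 protease gene MBTPS1 (-0.04) and the site-2 protease gene MBTPS2 (-0.17) did not pass, with SE of 0.15, 0.10 and 0.23. MBTPS1 ran from 212.1 to 224.8 CPM with TH10785 and from 211.1 to 233.6 CPM with DMSO, and passed in no comparison.

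Of the 5 genes of sterol transport and storage, TMEM97 and STARD4 rose. TMEM97, the sigma-2 receptor, which binds NPC1, had 122.4, 133.2 and 133.8 CPM with TH10785 and 70.6, 72.3 and 68.2 CPM with DMSO (log2 0.88, SE 0.12, adjusted p = 0.000868). STARD4, a soluble sterol carrier, had 39, 38.9 and 23.5 CPM with TH10785 and 18, 17 and 21 CPM with DMSO. Replicate 3 came close to the DMSO libraries (log2 0.86, SE 0.18, adjusted p = 0.0432), and STARD4 was called in 13 of 23 settings, with a highest adjusted p of 0.226. NPC1, which exports cholesterol from lysosomes, had 43, 43 and 42.1 CPM with TH10785 and 30.2, 28 and 34.4 CPM with DMSO. The groups did not overlap, but NPC1 did not pass (log2 0.47, SE 0.15, adjusted p = 0.17). NPC1 was called in 2 of 23 settings, both with GC and length offsets (0.55, adjusted p = 0.0356 with the offsets alone). Its luminal partner NPC2 had 212 to 238.2 CPM against 175.1 to 193.8 CPM (log2 0.28, SE 0.11, adjusted p = 0.244). SOAT1, which esterifies cholesterol for storage, had 33.3, 35.4 and 24.7 CPM with TH10785 and 34.5, 37.8 and 34.1 CPM with DMSO, with overlap (log2 -0.19, SE 0.15, adjusted p = 0.612). These are bulk measurements, in which fewer cells of a type and less RNA per cell cannot be told apart.

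**Figure D2:**
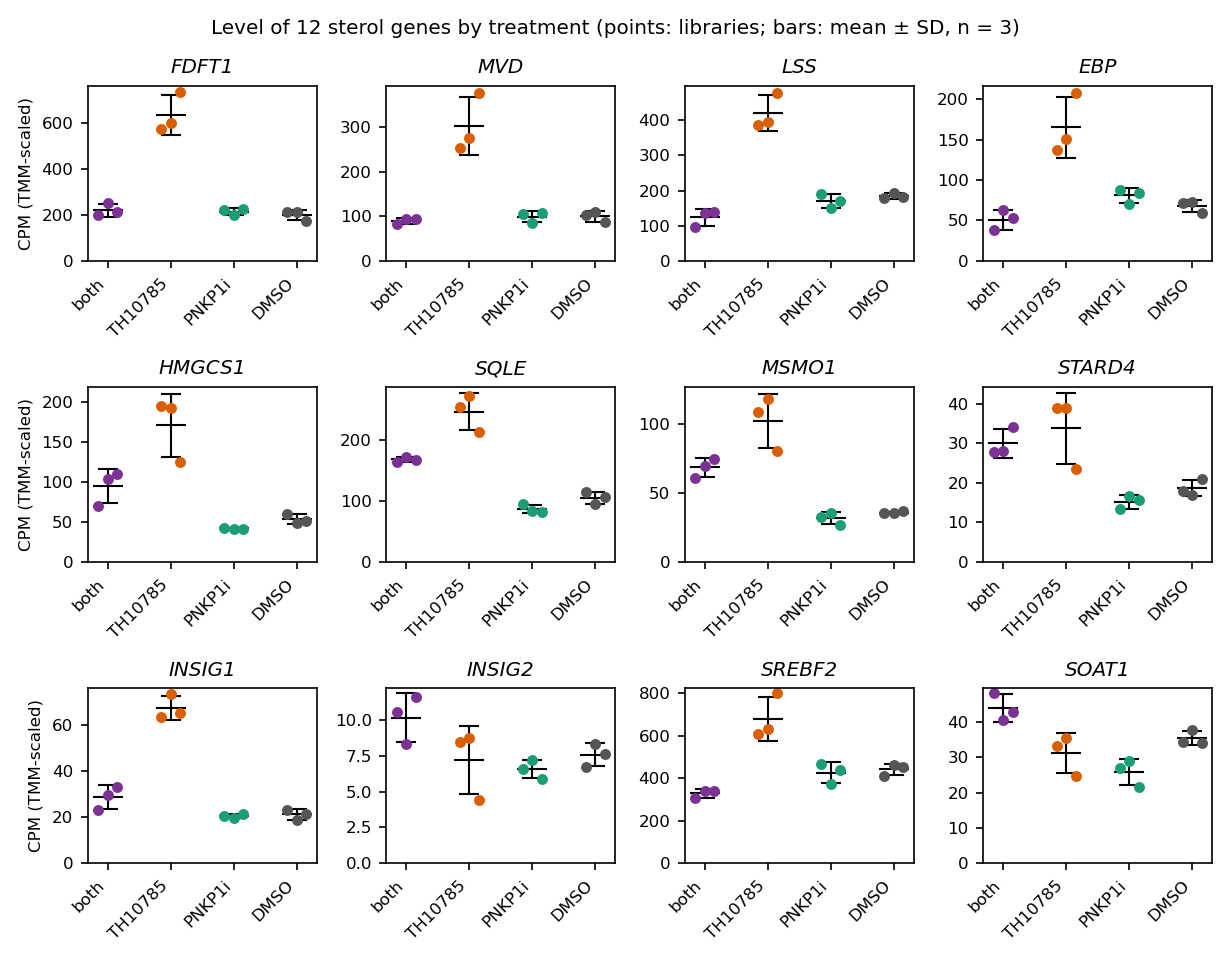
CPM of 12 of the genes in each library (points) with mean and SD of 3 libraries (bars), for the combination, TH10785, PNKP1i and DMSO. TH10785 libraries are the highest for FDFT1, MVD, LSS, EBP, HMGCS1, SQLE, MSMO1, INSIG1 and SREBF2, while INSIG2 and SOAT1 overlap between TH10785 and DMSO.

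Per kilobase of exon, a rough scale for setting genes side by side, the levels in the list spanned a wide range. The length was that of all annotated exons of a gene joined, which can exceed its longest transcript. It was 5202 against 2660 bases for FDFT1, 2749 against 1436 for NPC2 and 7557 against 5699 for SREBF2. The order of genes may therefore depend on the length used, which the SD does not cover. In DMSO the highest level was that of NPC2 (66.4 ± 3.62 CPM per kb) and the next that of SREBF2 (58.4 ± 3.54). FDFT1 (38.5 ± 4.48), DHCR7 (34.5 ± 2.31) and SCAP (34.3 ± 5.97) followed and did not differ beyond their SD. MBTPS2 (0.725 ± 0.0802), GGPS1 (0.960 ± 0.0407), IDI1 (1.62 ± 0.0717) and INSIG2 (1.92 ± 0.204) were the lowest. With TH10785, FDFT1 (122.3 ± 16.5) and DHCR7 (103.5 ± 21.3) were the highest per kb, followed by SREBF2 (89.98 ± 13.9) and NPC2 (80.7 ± 5.20). INSIG1 stood at 18.5 ± 1.43 CPM per kb with TH10785 and 5.78 ± 0.605 with DMSO, and INSIG2 at 1.83 ± 0.610 and 1.92 ± 0.204.

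With PNKP1i alone no member of the list passed the test. Of the 30 members 0 rose and 0 fell, where 0.174% of tested genes rose and 0.0231% fell. The median log2 fold change was -0.05, against -0.02 over all genes. At an unadjusted p under 0.05, 3 members (SQLE, NPC2 and SOAT1) and 1957 of 17290 genes passed in edgeR, and DESeq2 also called 0 members. The members summed to 2588, 2327 and 2507 CPM with PNKP1i and 2411, 2547 and 2397 CPM with DMSO, which overlapped. FDFT1 had 220.9, 199.5 and 225 CPM with PNKP1i, INSIG1 had 20.4, 19.4 and 21.3 CPM, and SREBF2 had 468.8, 372.9 and 437.6 CPM, all overlapping DMSO. Not every member overlapped. The PNKP1i libraries lay fully above DMSO for 3 members (TM7SF2, MBTPS1 and NPC2). They lay fully below for 5 (HMGCS1, SQLE, CYP51A1, STARD4 and SOAT1). Of the 17290 tested genes 2016 lay fully above and 2454 fully below. SOAT1 had the largest difference, at 26.9, 29.1 and 21.7 CPM with PNKP1i, below the DMSO libraries (log2 -0.45, SE 0.15, adjusted p = 0.32). It passed in the fit of the 6 libraries compared alone, in which 1144 genes were called in place of 34. That count of 34 became 22, 13 and 8 without DMSO replicates 1, 2 and 3, 6 and 9 without PNKP1i replicates 1 and 3, 20 and 297 without TH10785 replicates 2 and 3, and 67 without combination replicate 1, with 0 members called in each.

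**Figure D3:**
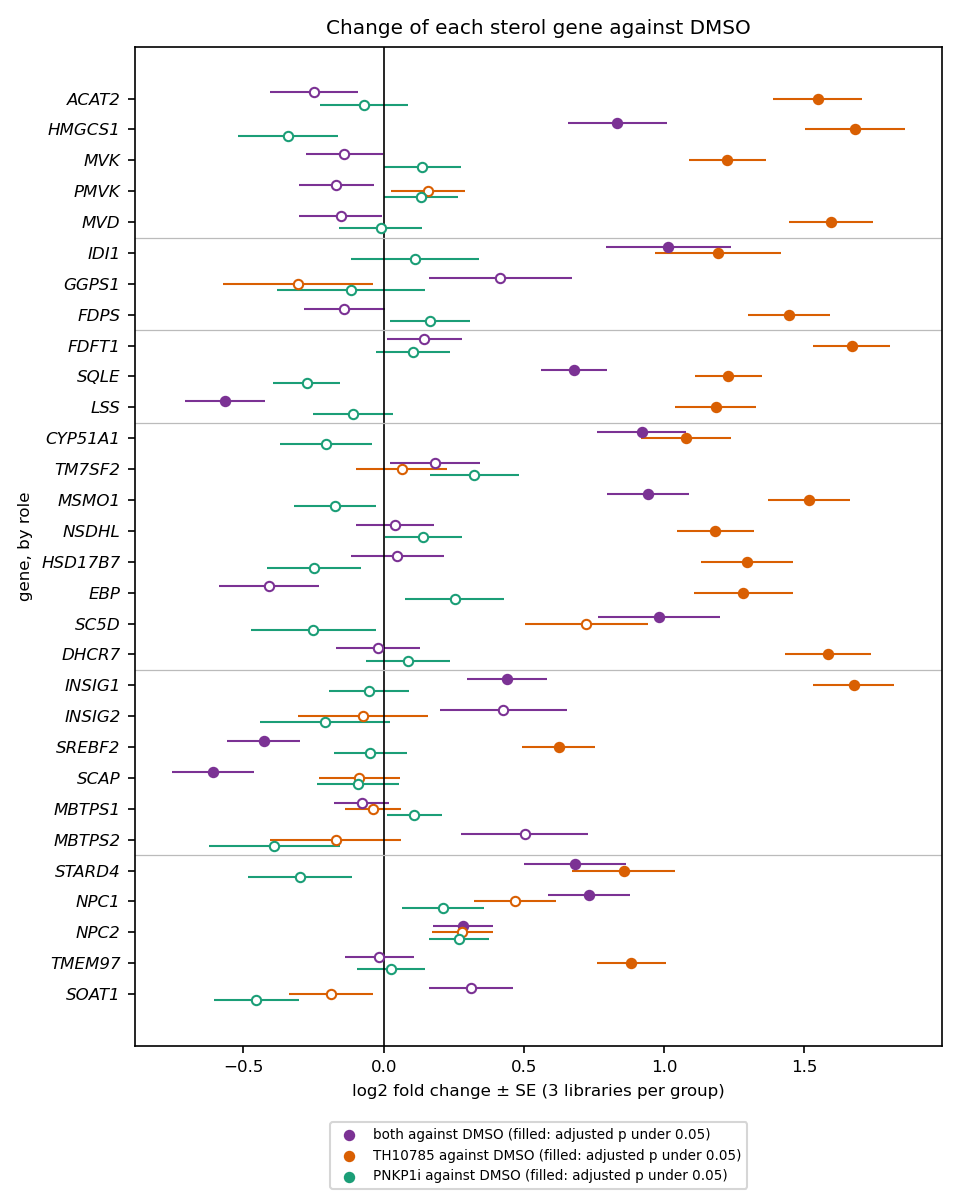
Log2 fold change against DMSO with SE (horizontal axis; 3 libraries per group) for each gene (rows, by role) with the combination, TH10785 or PNKP1i; filled points passed at an adjusted p under 0.05. TH10785 points of most synthesis genes lie between 1 and 1.7, and no PNKP1i point is filled.

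With both compounds the list as a whole stood near its DMSO level in summed CPM, and its members split. The members summed to 2240, 2566 and 2451 CPM with the combination, 4477, 4668 and 5319 CPM with TH10785, 2588, 2327 and 2507 CPM with PNKP1i and 2411, 2547 and 2397 CPM with DMSO. By these scaled sums the combination and DMSO libraries overlapped, and the TH10785 libraries lay above all others. As a share of unscaled counts the members made 0.255%, 0.278% and 0.276% with the combination. With DMSO they made 0.244%, 0.246% and 0.233%, without overlap. Against DMSO, 10 members rose (HMGCS1, IDI1, SQLE, CYP51A1, MSMO1, SC5D, INSIG1, STARD4, NPC1 and NPC2), 3 fell (LSS, SREBF2 and SCAP) and 17 did not pass. Over all tested genes 21.3% rose and 19.7% fell. Libraries did not overlap for 12 members above DMSO and 3 below, where 28.4% of tested genes lay fully above and 25.2% fully below. The members' median log2 fold change was 0.16, against 0.04 over all genes. The comparison shares its DMSO libraries with the comparisons of the single compounds.

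Base composition moved with the combination's changes within the list. Across the 30 genes, the Spearman correlation of GC content with the log2 fold change of the combination against DMSO was -0.76 (Pearson -0.75), against -0.52 over 17282 tested genes. The genes of one correlation share the same libraries. The 10 genes that rose had a median GC content of 41.3% (34.2% to 50.3%) and the 3 that fell 58.3% (57.1% to 62.3%). With per-library offsets for GC content and transcript length, the correlation over the 30 genes was 0.05, and 7 members rose and 0 fell. The offsets were fitted to these same libraries, so they tend to lower such a correlation by construction. They would also remove a response to treatment that follows GC content or length. The 7 were IDI1, SQLE, CYP51A1, TM7SF2, SC5D, INSIG1 and NPC1. For TH10785 against DMSO the correlation was 0.14, and 21 members rose with the offsets and 0 fell, SC5D and NPC1 being added. For PNKP1i against DMSO it was 0.65, against 0.26 over all genes, and still 0.51 with the offsets, with no member called in either fit. The part of base composition in these changes was not tested further.

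**Figure D4:**
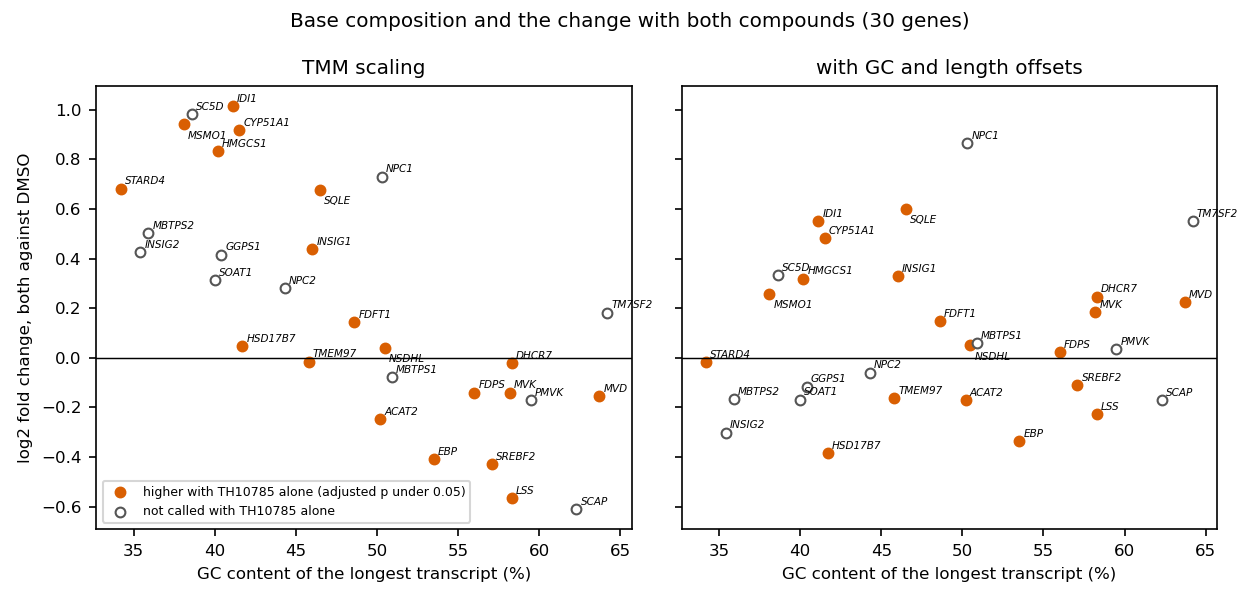
Log2 fold change of the combination against DMSO (vertical) by GC content of the longest transcript (horizontal, %) for the 30 genes, with TMM scaling (left) and with GC and length offsets (right); filled points were higher with TH10785 alone. On the left all genes up to the GC content of CYP51A1 (41.5%) lie above 0. Of those from EBP (53.5%) upward, TM7SF2 alone lies above 0 there. On the right the Spearman correlation is 0.05, against -0.76 on the left. The offsets were fitted to these libraries and tend to lower it by construction.

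Set against TH10785 alone, the combination had lower levels of most synthesis genes. Of the 30 members 17 were lower, 3 higher and 10 did not pass, where 19.7% of tested genes were lower and 22.7% higher. The median log2 fold change was -0.56, against 0.02 over all genes. Libraries did not overlap for 18 members below TH10785 and 5 above, where 24.9% of tested genes lay fully below and 27.4% fully above. With GC and length offsets 20 members were lower and 1, TM7SF2, was higher, with a median of -0.89. The 3 higher members were GGPS1 (log2 0.72), MBTPS2 (0.67) and SOAT1 (0.50). Their count fell to 0 without combination replicate 1, to 1 without combination replicate 3, to 1 without TH10785 replicate 3 and to 1 in the fit of only the groups compared, and with the offsets their values were 0.18, -0.08 and -0.14, past no test.

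The interaction tests whether the combination differs from what the single compounds would give if their log2 changes added. Of the 30 members 13 had a negative interaction, 2 a positive one and 15 did not pass, where 14.1% of tested genes were negative and 16.5% positive. The count of 5289 genes behind those shares was 3489 without DMSO replicate 3 and 3518 without PNKP1i replicate 1, with 13 negative members in each. The median was -0.45, against 0.00 over all genes. With the offsets 18 members were negative and 0 positive, with a median of -0.86. The positive ones, MBTPS2 (1.06, SE 0.33, adjusted p = 0.0224) and SOAT1 (0.95, SE 0.21, adjusted p = 0.00689), had values of 0.14 and 0.12 with the offsets. MBTPS2 also lost its call without DMSO replicate 2, DMSO replicate 3, PNKP1i replicate 1 or combination replicate 3, each of which left 1 positive member.

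In the early mevalonate steps ACAT2, MVK and MVD had a negative interaction, and HMGCS1 stayed above DMSO. ACAT2 had 36.3, 55.1 and 45.2 CPM with the combination and 50.6, 52.5 and 51.3 CPM with PNKP1i. The combination libraries lay below all TH10785 libraries and overlapped both PNKP1i and DMSO (interaction log2 -1.73, SE 0.22, adjusted p = 0.000767). MVD had 82.3, 94.2 and 93.8 CPM with the combination and 106.2, 85.8 and 106.6 CPM with PNKP1i, with the same placing (interaction -1.74, SE 0.21, adjusted p = 0.000633). MVK averaged 41.8 ± 6.14 CPM with the combination and 50.7 ± 4.72 CPM with PNKP1i (interaction -1.50, SE 0.19). HMGCS1 had 70.4, 104.1 and 110.5 CPM with the combination and 43, 41.9 and 41.3 CPM with PNKP1i. These values lay between the groups, above every DMSO and PNKP1i library and below every TH10785 library (0.83 against DMSO, adjusted p = 0.00153; -0.85 against TH10785, adjusted p = 0.00142). With the offsets the value against DMSO was 0.32 (adjusted p = 0.0666), past no test, and the interaction was -1.20 (adjusted p = 0.00148), against -0.51 (adjusted p = 0.126) without them. PMVK had 24.1, 31.5 and 26.5 CPM with the combination and 35.5, 33.1 and 32.7 CPM with PNKP1i.

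Without the offsets the isoprenoid genes separated. FDPS had 57.2, 76.7 and 66.1 CPM with the combination and 85, 80.9 and 81.3 CPM with PNKP1i, and had the smallest interaction p of the list (-1.75, SE 0.20, adjusted p = 0.000531). IDI1 had 11.6, 14.9 and 16.3 CPM with the combination and 8.35, 8.18 and 6.37 CPM with PNKP1i. All 3 combination values exceeded those of DMSO (log2 1.02, SE 0.22, adjusted p = 0.00209) and overlapped those of TH10785. With the offsets IDI1 stood at 0.55 against DMSO (adjusted p = 0.012) and at -0.67 against TH10785 (adjusted p = 0.00258), where it was at -0.18 (adjusted p = 0.537) without them. The interaction of IDI1 was -0.29 (adjusted p = 0.513) without the offsets and -0.88 (adjusted p = 0.0136) with them. That of FDPS was -1.38 with them. GGPS1 had 4.74, 4.41 and 5.47 CPM with the combination and 2.26, 3.98 and 3.85 CPM with PNKP1i (0.42 against DMSO, SE 0.26, adjusted p = 0.205; -0.12 with the offsets).

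FDFT1 and LSS had a negative interaction, and SQLE did not pass that test. FDFT1 had 199, 252.2 and 212.3 CPM with the combination, which overlapped PNKP1i and DMSO and lay far below TH10785 (interaction -1.63, SE 0.19, adjusted p = 0.000531). LSS had 96.2, 137.6 and 139.4 CPM with the combination and 190.2, 151.8 and 170.5 CPM with PNKP1i. The combination libraries of LSS were below those of all other groups (-0.57 against DMSO, SE 0.14, adjusted p = 0.00522; interaction -1.64). With the offsets LSS stood at -0.23 against DMSO (adjusted p = 0.136) and its interaction at -1.37 (adjusted p = 9.43e-05). SQLE had 164.4, 171.9 and 167.8 CPM with the combination and 95.2, 82.7 and 82.5 CPM with PNKP1i, tight values between TH10785 and DMSO (0.68 against DMSO, SE 0.12, adjusted p = 0.000347; -0.55 against TH10785, adjusted p = 0.00177). Its value against DMSO was 0.60 with the offsets (adjusted p = 0.000117).

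Among the late enzymes NSDHL, HSD17B7, EBP and DHCR7 had a negative interaction. DHCR7 had 124.9, 156.3 and 143.4 CPM with the combination and 177.7, 129.4 and 150.4 CPM with PNKP1i, overlapping DMSO (interaction -1.69, SE 0.21, adjusted p = 0.00072). EBP averaged 51.1 ± 12.4 CPM with the combination, 165 ± 37.4 CPM with TH10785, 80.9 ± 8.91 CPM with PNKP1i and 67.9 ± 7.55 CPM with DMSO (SD, n = 3 each), and its interaction was the most negative of the list (-1.95, SE 0.25, adjusted p = 0.000767). NSDHL averaged 48.2 ± 7.47 CPM and HSD17B7 13.4 ± 1.14 CPM with the combination, against 46.9 ± 4.22 and 13 ± 2.81 CPM with DMSO. MSMO1 had 61.1, 69.8 and 74.9 CPM with the combination and 32.7, 35.4 and 27 CPM with PNKP1i, which placed it between TH10785 and DMSO without overlap (0.94 against DMSO, SE 0.15, adjusted p = 0.000134; -0.58 against TH10785, adjusted p = 0.00449). With the offsets MSMO1 was at 0.26 against DMSO (adjusted p = 0.0781) and -1.24 against TH10785, and its interaction was -1.13 (adjusted p = 0.000502), against -0.40 (adjusted p = 0.139) without them. CYP51A1 had 15.9, 15.4 and 15.4 CPM with the combination and 7.84, 6.14 and 7.41 CPM with PNKP1i, within the range of TH10785 (0.92 against DMSO, SE 0.16, adjusted p = 0.000342; 0.48 with the offsets, adjusted p = 0.0148). Against TH10785 CYP51A1 was at -0.16 (adjusted p = 0.429), and with the offsets it was lower with the combination (-0.65, adjusted p = 0.00168). SC5D averaged 23 ± 2.38 CPM with the combination and 9.76 ± 1.48 CPM with PNKP1i (0.98 against DMSO, adjusted p = 0.00212; 0.33 with the offsets, adjusted p = 0.049). TM7SF2 had 10.2, 10.4 and 9.91 CPM with the combination and 10.2, 12.8 and 10.7 CPM with PNKP1i, and passed against DMSO with the offsets alone (0.55, adjusted p = 0.00992).

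INSIG1 and SREBF2 both had a negative interaction. INSIG1 had 23, 29.8 and 33.1 CPM with the combination and 20.4, 19.4 and 21.3 CPM with PNKP1i. Its lowest combination library overlapped DMSO and all 3 lay below TH10785 (0.44 against DMSO, SE 0.14, adjusted p = 0.021; interaction -1.18, SE 0.20, adjusted p = 0.00409). The call against DMSO ended without DMSO replicate 2, DMSO replicate 3 or combination replicate 3 (highest adjusted p = 0.112 over the settings). SREBF2 had 305.8, 337.9 and 339.6 CPM with the combination, the lowest of the 4 groups (-0.43 against DMSO, SE 0.13, adjusted p = 0.0151; interaction -1.004, SE 0.18, adjusted p = 0.00538). With the offsets SREBF2 stood at -0.11 against DMSO (adjusted p = 0.427) and its interaction at -0.78 (adjusted p = 0.00293). Its call against DMSO also ended without DMSO replicate 2 or combination replicate 1. INSIG2 had 10.6, 8.34 and 11.67 CPM with the combination and 6.60, 7.21 and 5.93 CPM with PNKP1i (0.43 against DMSO, SE 0.23, adjusted p = 0.143; -0.30 with the offsets). SCAP averaged 144.7 ± 12 CPM with the combination, 207.9 ± 35.9 CPM with TH10785, 207.3 ± 18.9 CPM with PNKP1i and 220.7 ± 38.4 CPM with DMSO (-0.61 against DMSO, adjusted p = 0.00367; -0.17 with the offsets, adjusted p = 0.241). MBTPS2 averaged 9.17 ± 0.957 CPM with the combination and 6.47 ± 0.716 CPM with DMSO (0.50, adjusted p = 0.0843; -0.17 with the offsets).

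In transport and storage NPC1 rose with the combination. NPC1 had 64.6, 43.1 and 46 CPM with the combination and 38.3, 35.4 and 33.5 CPM with PNKP1i. Replicate 1 of the combination was the highest library, and all 3 lay above TH10785, PNKP1i and DMSO. The log2 change of NPC1 was 0.73 against DMSO (SE 0.15, adjusted p = 0.00106) and 0.87 with the offsets (adjusted p = 6.6e-05). Against TH10785 it was 0.26 and did not pass (SE 0.14, adjusted p = 0.151), where 27.4% of tested genes lay fully above. STARD4 had 27.7, 28 and 34.2 CPM with the combination and 13.3, 16.7 and 15.6 CPM with PNKP1i, inside the TH10785 range (0.68 against DMSO, SE 0.18, adjusted p = 0.00718; -0.17 against TH10785, adjusted p = 0.46). With the offsets STARD4 was at -0.02 against DMSO (adjusted p = 0.922) and lower with the combination than with TH10785 (-0.96, adjusted p = 6.03e-06), and its interaction at -0.83 (adjusted p = 0.00371) in place of 0.12 (adjusted p = 0.743). TMEM97 had 60.2, 81.3 and 67.4 CPM with the combination and 78.2, 64 and 72.8 CPM with PNKP1i, overlapping DMSO and below TH10785 (interaction -0.93, SE 0.17, adjusted p = 0.00551). SOAT1 had 48.4, 40.7 and 43 CPM with the combination, the highest of the 4 groups (0.31 against DMSO, SE 0.15, adjusted p = 0.104; -0.17 with the offsets). NPC2 averaged 222 ± 16.6 CPM with the combination and 182.5 ± 9.95 CPM with DMSO (0.28, adjusted p = 0.0447), a call held in 7 of 23 settings.

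Set against PNKP1i alone, 12 members were higher with the combination, 4 were lower and 14 did not pass, where 24.4% of tested genes were higher and 21.5% lower. Libraries did not overlap for 14 members above PNKP1i and 7 below, where 30.3% of tested genes lay fully above and 27.9% fully below. The 4 lower members were LSS, EBP, SREBF2 and SCAP. Among the higher ones SC5D (log2 1.23), HMGCS1 (1.17), CYP51A1 (1.12), MSMO1 (1.11), STARD4 (0.98) and SQLE (0.95) had the largest changes. With the offsets LSS, SREBF2 and SCAP lost their calls, and the 2 lower members were EBP (-0.47, adjusted p = 0.0146) and NPC2 (-0.31, adjusted p = 0.0417). Higher with the offsets were 8, and the order changed. SQLE then stood at 0.88, NPC1 at 0.61, CYP51A1 at 0.59, HMGCS1 at 0.53, SC5D at 0.52 and MSMO1 at 0.37, and STARD4 lost its call (0.11, adjusted p = 0.491). The count of lower members was 2 without PNKP1i replicate 1, 2 without combination replicate 1 and 7 without combination replicate 2.

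Other genes of the pathway were followed in 3 further lists. Of 13 genes of sterol uptake, transport and storage, 1 rose and 0 fell with TH10785, where 0.515% of tested genes rose and 0.0463% fell. It was LIPA, the lysosomal acid lipase that frees cholesterol from its esters, with 42.6, 39.4 and 30.4 CPM with TH10785 and 25.4, 24.3 and 23.9 CPM with DMSO (log2 0.61, SE 0.13, adjusted p = 0.0455). None of the 12 genes of the isoprenoid branch (ubiquinone, dolichol and prenyl transfer), nor of the 7 genes of sterol-regulated degradation in the endoplasmic reticulum, passed with TH10785, with medians of 0.06 and -0.05. With PNKP1i no gene of the 3 lists passed, where 0.174% of tested genes rose and 0.0231% fell, and their medians were -0.02, 0.12 and -0.01 for uptake, isoprenoid branch and degradation. With the combination against DMSO, 5 rose and 3 fell in the uptake list, 5 and 3 in the isoprenoid branch, and 1 and 1 in the degradation list, where 21.3% of tested genes rose and 19.7% fell. VLDLR, a lipoprotein receptor, averaged 37 ± 2.04 CPM with the combination and 18.5 ± 2.58 CPM with DMSO (log2 0.997, SE 0.15, adjusted p = 9.78e-05). RABGGTB, which attaches geranylgeranyl groups to Rab proteins, averaged 54.3 ± 11.3 CPM with the combination and 19.8 ± 0.532 CPM with DMSO (log2 1.46, SE 0.23). RABGGTA, in the same list, fell, at 23.5 ± 1.44 and 33 ± 3.78 CPM (log2 -0.49, SE 0.13, adjusted p = 0.00813). FNTB (-0.57) and ICMT (-0.45) of that list also fell. VCP, the ATPase that pulls proteins out of the endoplasmic reticulum, averaged 553.4 ± 36.3 and 873 ± 60.3 CPM (log2 -0.66, SE 0.13). These 3 lists were fitted without the offsets only, and the part of base composition in their changes was not tested.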

How the data were processed

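The authors deposited a table of raw read counts per gene, which was the table tested, and a normalized signal, in which a library's raw counts were all divided by the same size factor. Per the submitters' processing notes, the tools were DESeq2 1.30.1, HTSeq 0.6.1 and HISAT2 2.0.5 and the build was GRCh38 (hg38). The annotation and strand setting were not given in the sources used here, so reads of overlapping genes on opposite strands may be mixed. Per the labels' protocols, TRIzol RNA was made into NEBNext Ultra libraries and read as 150 bp pairs on a NovaSeq. All 58735 identifiers match GENCODE 29 (GRCh38), used for exons, length and GC content.

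Counts were tested in R 4.3.3 with edgeR 4.0.16: filterByExpr (minimum count 10, minimum total 15; 17290 genes), TMM scaling, 1 mean per group over the 12 libraries, and robust quasi-likelihood F tests, two-sided. P-values were adjusted by Benjamini-Hochberg over all tested genes within each of 6 comparisons, with calls made at an adjusted p under 0.05. The SE is the log2 fold change over the square root of F. GC and length offsets are splines with 5 degrees of freedom, fitted in each library to the deviations of 17282 genes from their mean over the libraries. Further settings were DESeq2 1.42.0, limma 3.58.1 (voom, and trend on log2 of the deposited normalized value plus 1), upper-quartile and RLE scaling, no filter, a filter at CPM 1 in 3 libraries with a summed count of 120, only the groups compared, a replicate block, and each library left out. The tests were also run on simulated counts, drawn without differences in base composition between libraries, so that check does not cover such differences.

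The members and lists were chosen with earlier results of these data known. The rule for values in every library took, in each role group, the 2 smallest and the largest p for TH10785, then INSIG1, INSIG2, SREBF2, NPC1 and SOAT1, and the 6 smallest p of the interaction and of the combination against DMSO. The promoter motifs, the groups by base composition and the levels per kb lie outside that rule. No replicate pair held identical counts. Depth was 16225339 to 21546369 counts per library.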

Additional observations from a re-analysis of the deposited data

Results flagged for a closer look

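For 15 of the 30 genes the effect of TH10785 differed between cells with and without PNKP1i, by the interaction test in edgeR (Benjamini-Hochberg adjusted p under 0.05). The interaction was negative on the log2 scale for EBP (-1.95), FDPS (-1.75), MVD (-1.74), ACAT2 (-1.73), DHCR7 (-1.69), LSS (-1.64), FDFT1 (-1.63), MVK (-1.50), NSDHL (-1.28), INSIG1 (-1.18), SREBF2 (-1.004), HSD17B7 (-1.001) and TMEM97 (-0.93). It was positive for MBTPS2 (1.06) and SOAT1 (0.95). Over all tested genes 14.1% had a negative and 16.5% a positive interaction. With GC and length offsets 18 members were negative and 0 positive. Single values far from the rest of their group were not tested for, since each group holds 3 libraries.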

How the results depend on the processing

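The counts of members kept within 1.5 times of those reported under RLE and upper-quartile scaling, DESeq2, limma-voom, limma-trend, no filter and the stricter filter, for all 6 comparisons. Fitting only the groups compared gave 1 lower member for PNKP1i and 1 higher member for the combination against TH10785. GC and length offsets gave 0 lower members for the combination against DMSO, 1 higher against TH10785, 2 lower against PNKP1i and 0 positive interactions. Under the offsets, among members called with or without them, the log2 values of STARD4 and NPC2 turned to -0.0177 and -0.05905 (combination against DMSO), of SC5D, MBTPS2 and SOAT1 to -0.35, -0.0803 and -0.14 (against TH10785), of MVD, INSIG2 and NPC2 to 0.31, -0.21 and -0.31 (against PNKP1i), and the interaction of STARD4 to -0.83; the cause was not tested. Members called in neither fit also changed sign: 11 against DMSO, 3 against TH10785, 7 against PNKP1i and 4 in the interaction for the combination, and 1 each for TH10785 and PNKP1i. Leaving out each library gave 0 to 3 higher members for the combination against TH10785, 2 to 7 lower against PNKP1i, 1 to 2 positive interactions and 16 to 20 higher members for TH10785.

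The labels do not state that replicate numbers pair the samples. Of 18 same-number pairs 1 had a correlation of deviations over 0.1 (-0.26 to 0.13), and 1 library correlated best with its own number. These correlations cannot show that pairing is absent, since differences in base composition between libraries also enter them. With the replicate block 16 members rose and 0 fell with TH10785, and 9 and 3 with the combination against DMSO, with the other counts as without it. The block together with the offsets gave 5 higher and 0 lower members for the combination against DMSO, 1 higher against TH10785, 1 lower against PNKP1i and 0 positive interactions. Log2 values then turned to -0.01825 (STARD4) and -0.05555 (NPC2) against DMSO, -0.082 (MBTPS2) and -0.14 (SOAT1) against TH10785, 0.31 (MVD) and -0.20 (INSIG2) against PNKP1i, and -0.83 (STARD4 interaction).

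Over all genes the 97 calls of TH10785 became 318 with DESeq2 (225 higher, 93 lower), 513 with no filter, 285 with the offsets, 62 with the block and 187 with the block and the offsets. The 34 of PNKP1i became 111, 189, 91, 15 and 55, and 1144 with only the groups compared. The 5289 interactions became 3489 without DMSO replicate 3, 3518 without PNKP1i replicate 1, 3264 with the offsets and 2699 with the block and the offsets. The 3 libraries per group limit the precision, and GGPS1 and MBTPS2 were under 10 CPM in every library.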
